A study of Mus musculus with 12 samples.

Results

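The dexamethasone response of the liver after ovariectomy was measured in 6 of the 12 liver RNA libraries of the study. These were the 3 dexamethasone and the 3 vehicle libraries of ovariectomized females, taken by their labels. All were from wild-type C57BL/6 female mice. Ovariectomized females, whose ovaries had been removed, received dexamethasone at 1 mg/kg or the vehicle PBS, and livers were taken 6 h later. The other 6 libraries came from females of the same strain and genotype with intact ovaries, 3 given dexamethasone and 3 given PBS by the same schedule. The time between ovariectomy and treatment and the age of the mice were not given in the sources used here.

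Dexamethasone is a synthetic glucocorticoid. It binds the glucocorticoid receptor, a transcription factor held in the cytoplasm by chaperones, which then enters the nucleus, binds glucocorticoid response elements and also restrains inflammatory transcription factors. In liver the receptor is known for the control of gluconeogenesis, amino acid breakdown, acute phase proteins and the fasting response. Ovariectomy removes the main source of oestrogen and of ovarian progesterone.

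Levels are log2 expression values as deposited, and responses are log2 fold changes, dexamethasone over vehicle, ± standard error (SE) of the limma fit over 3 libraries a group. A gene passed where its p, adjusted by Benjamini-Hochberg over 12965 genes tested, was under 0.05. Read depth cannot be recovered from these values, so no counting interval is given. Separate animals are not stated for the 3 libraries of a group, and the p-values then cover only the spread among these libraries, which may be technical. All 12 hepatocyte markers listed were present at 13.62 or more in every library. In bulk liver, fewer cells of a type and less RNA per cell cannot be told apart. Library medians lay between 8.82 and 8.86, and pairs of replicate libraries from ovariectomized females were 0.174 to 0.243 apart (root mean square over genes). The first principal component of the 6 libraries held 73.9% of their variance, with the 3 dexamethasone libraries on one side of it and the 3 vehicle libraries on the other.

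With dexamethasone, 2765 genes (21.3%) rose and 2518 (19.4%) fell in ovariectomized females, 40.7% of those tested. Most of these changes were small: 67.7% of them were below 0.5 on the log2 scale, and 200 rises (1.54%) and 159 falls (1.23%) were at least 2-fold, 2.77% of genes tested. The middle of the distribution was near 0, with a median over all genes of -0.00029, and the middle 50% of genes between -0.20 and 0.19. The 3 dexamethasone and 3 vehicle libraries did not overlap for 54.6% of genes. The plot of change against level shows that large rises occurred at low and at high values, among them Serpina3k and Cps1 on the right, while the largest falls lay at low and middle values. The values are not corrected for transcript length, so they do not rank genes by abundance. Counts of gene lists below are to be read beside the 21.3% of all genes that rose and the 19.4% that fell.

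**Figure D1:**
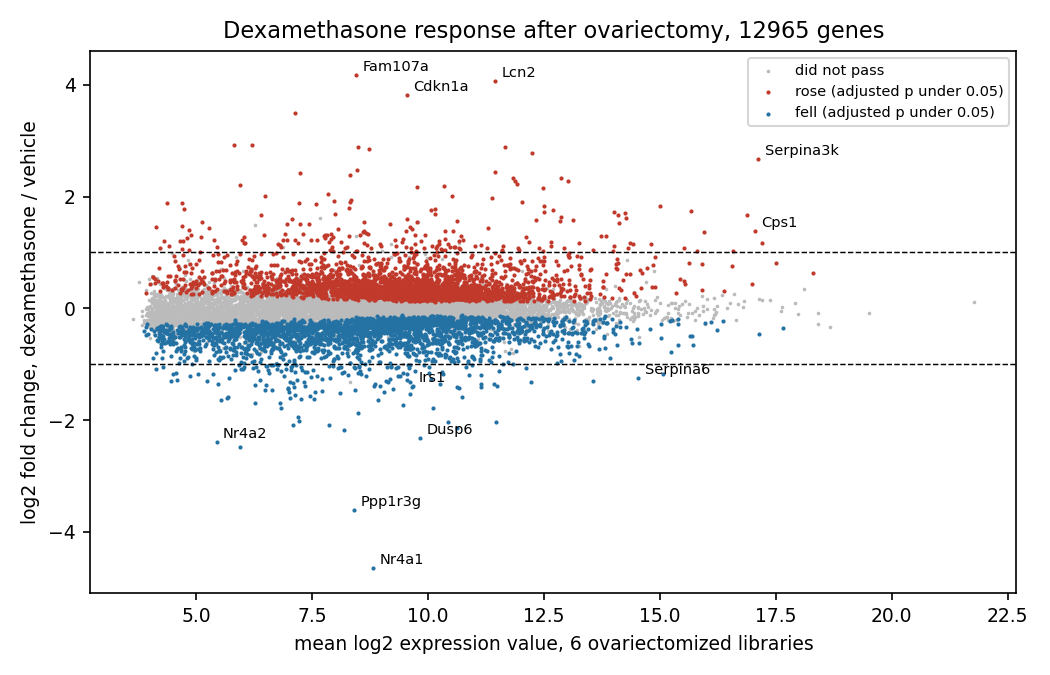
Log2 fold change with dexamethasone (vertical axis) against the mean log2 expression value over the 6 ovariectomized libraries (horizontal axis) for 12965 genes, with genes that rose in red, genes that fell in blue and dashed lines at 2-fold. Rises and falls were close in number (2765 and 2518), and Fam107a, Lcn2 and Cdkn1a at the top and Nr4a1 and Ppp1r3g at the bottom lay farthest from 0.

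The largest rise was that of Fam107a (Entrez 268709), which encodes an actin-binding protein known to be induced by stress and glucocorticoids. Its level was 11.12, 10.02 and 10.47 in the dexamethasone libraries, against 6.36, 6.32 and 6.41 in the vehicle libraries, a rise of 4.17 ± 0.34 or 18-fold (limma adjusted p = 8.4e-06). All 3 dexamethasone libraries stood far above a tight set of vehicle libraries. Lcn2 (Entrez 16819), the siderophore-binding acute phase protein lipocalin 2, stood at 13.53, 13.55 and 13.38 with dexamethasone and 9.32, 9.32 and 9.61 with vehicle, and rose by 4.06 ± 0.20. Cdkn1a (Entrez 12575), the cell cycle inhibitor p21, had values of 11.73, 11.11 and 11.51 with dexamethasone and 7.68, 7.46 and 7.76 with vehicle and rose by 3.81 ± 0.36. Sult1e1 (Entrez 20860), the sulfotransferase that inactivates oestrogens, was at 9.20, 8.62 and 8.78 with dexamethasone and at 5.31, 5.31 and 5.48 with vehicle. None of these 4 genes had overlapping libraries.

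Treh, which encodes trehalase, was at 7.92, 7.34 and 7.74 in dexamethasone libraries and 4.74, 4.65 and 4.84 in vehicle libraries. Zbtb16, a zinc finger transcription factor also called PLZF, was at 9.71, 10.17 and 9.92 with dexamethasone and 7.11, 6.93 and 7.09 with vehicle. Plin5, which ties lipid droplets to mitochondria, was at 12.56, 12.73 and 12.68 with dexamethasone and 10.26, 10.45 and 9.95 with vehicle. Within each group the 3 libraries of these genes lay close together, and their rises were 2.93 ± 0.19, 2.89 ± 0.30 and 2.44 ± 0.14. The serpin pseudogene Serpina4-ps1 was less even, at 9.96, 9.48 and 10.999 with dexamethasone and 7.22, 8.10 and 6.54 with vehicle, and rose by 2.86 ± 0.49. Eif4ebp3, a repressor of translation initiation, had one of the most even rises, 2.89 ± 0.10, with 13.35, 12.98 and 12.97 in dexamethasone libraries and 10.14, 10.25 and 10.22 in vehicle libraries. It is uncertain, because 65.5% of its 50-base words also occur in another gene.

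By the size of the change against its error, the leading rises besides Lcn2 and Eif4ebp3 were those of the sulfotransferase gene Sult1d1 (1.59 ± 0.071), Tango2 (1.30 ± 0.07) and the centriole protein gene Cntrl (1.21 ± 0.066). Sult1d1 stood at 13.90, 13.90 and 13.94 with dexamethasone, against 12.24, 12.29 and 12.44 with vehicle. Its replicates lay close together in both groups, so a rise of 3.01-fold stood out from a small spread. Among falls, the leading genes by that measure besides Nr4a1 and Rnf186 were Abcd2, which carries long acyl chains into peroxisomes (-1.35 ± 0.067), the sorting receptor gene Sort1 (-1.36 ± 0.076) and Eepd1 (-1.64 ± 0.094).

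**Figure D2:**
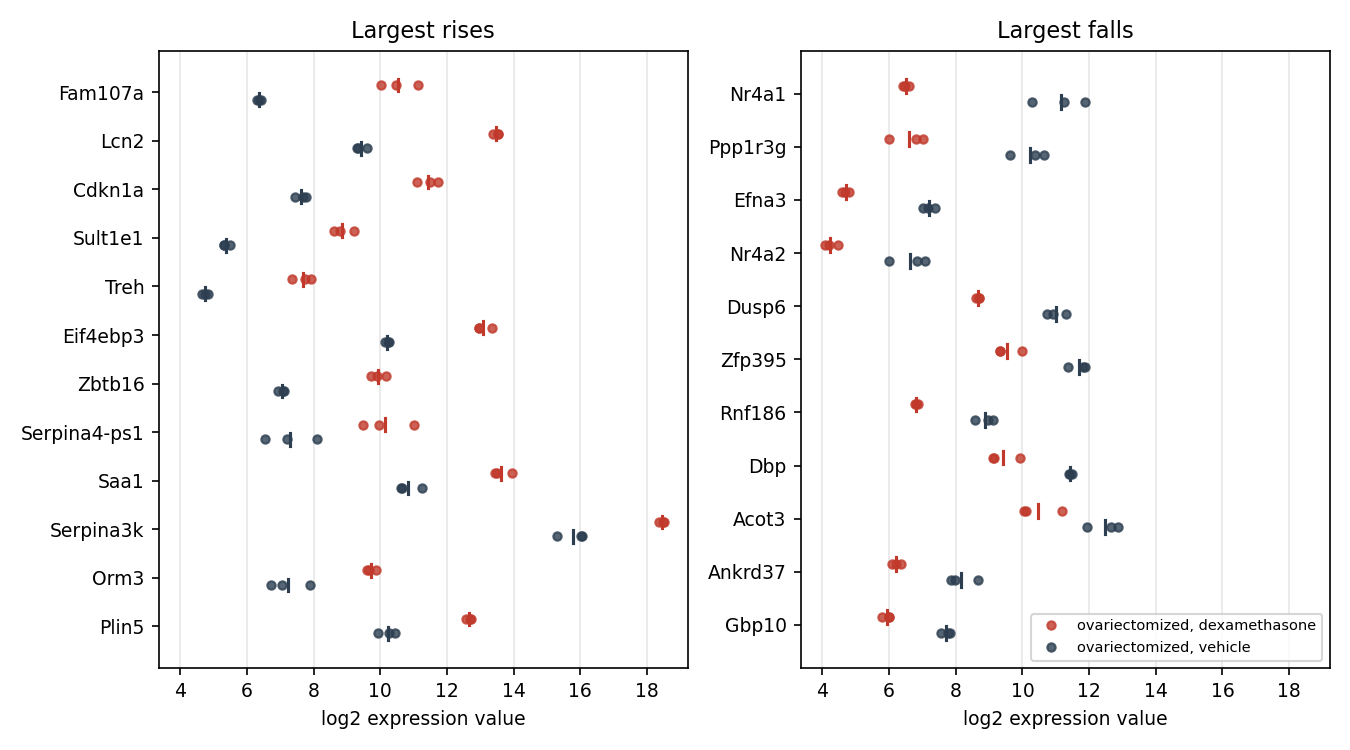
Log2 expression values (horizontal axis) of genes with the largest rises and falls that passed without overlap of libraries, with 1 point per library, dexamethasone in red above vehicle in dark blue, and a vertical bar at each mean. Nr4a1 lay at 6.42 to 6.60 with dexamethasone and 10.30 to 11.87 with vehicle, while Fam107a lay at 10.02 to 11.12 with dexamethasone and 6.32 to 6.41 with vehicle.

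The glucocorticoid receptor binds an inverted repeat, and the stretches before the start sites of the genes that rose most were searched for its core, GNACANNNTGTNC, a palindrome that reads the same on both strands. The stretch searched was the 250 bases before each RefSeq start (GRCm38.p6). Of 136 genes that rose at least 2-fold and had such a stretch, 7 (5.15%) held the core, and of 110 that fell at least 2-fold, 0 did. The share was 0.316% over all 9815 tested genes with a stretch and 0.387% over all 32817 stretches. The 7 are shown with 20 bases on each side of the core, which is in capitals, read 5′ to 3′ along the gene's strand, and they were singled out by the motif after their values were seen:
Fam107a (chr14:8309865-8309917, minus strand): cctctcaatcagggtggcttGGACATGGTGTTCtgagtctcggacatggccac
Map3k6 (chr4:133240617-133240669, plus strand): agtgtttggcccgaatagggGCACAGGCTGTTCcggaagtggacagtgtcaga
Mt1 (chr8:94178975-94179027, plus strand): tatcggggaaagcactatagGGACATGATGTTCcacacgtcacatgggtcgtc
Serpina3c (chr12:104153915-104153967, minus strand): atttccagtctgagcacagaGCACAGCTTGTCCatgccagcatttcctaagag
Serpina3n (chr12:104406610-104406662, plus strand): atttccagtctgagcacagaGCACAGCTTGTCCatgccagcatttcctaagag
Acnat2 (chr4:49408220-49408272, minus strand): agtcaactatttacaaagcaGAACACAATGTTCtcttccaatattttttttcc
Car14 (chr3:95904878-95904930, minus strand): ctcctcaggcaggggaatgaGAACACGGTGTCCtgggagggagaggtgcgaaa
The Serpina3c and Serpina3n stretches are identical over these bases, and both genes belong to one family of protease inhibitors, so they count as 1 sequence. Acnat2, a gene of the acyl-CoA N-acyltransferase family, holds the full element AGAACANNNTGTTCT, which contains the core and occurs in 3 of all stretches searched (0.00914%). A match is a description of the letters and not evidence of binding.

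These 7 genes rose by different amounts. The kinase gene Map3k6 was at 8.55, 8.02 and 7.92 in dexamethasone libraries and 6.31, 6.26 and 6.26 in vehicle libraries, a rise of 1.89 ± 0.28. Mt1, which encodes the metal-binding protein metallothionein 1, was at 15.43, 14.80 and 15.05 with dexamethasone and 13.26, 13.56 and 13.34 with vehicle, a rise of 1.70 ± 0.22. The protease inhibitor genes Serpina3c and Serpina3n rose by 1.45 ± 0.27 and 1.16 ± 0.10. Acnat2, which is uncertain because 30.0% of its 50-base words also occur in Acnat1, rose by 1.11 ± 0.21. Car14, a carbonic anhydrase gene, rose by 1.08 ± 0.16. The 7 matches begin between 225 (Car14) and 75 (Serpina3c) bases before the start. Lcn2, Cdkn1a, Sult1e1 and Treh had no match in the window, and each rose more than all of the 7 except Fam107a.

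Of 30 known targets of the receptor tested, 19 rose, 11 did not pass and 0 fell (0 at an unadjusted limma p under 0.05), with a median of 1.11 against -0.00029 for all genes, and the list includes genes put on it with earlier results of these libraries known. Fkbp5, a chaperone that dampens the receptor, was at 13.23, 12.90 and 12.93 with dexamethasone and 10.96, 10.88 and 10.37 with vehicle, a rise of 2.29 ± 0.22. Tsc22d3, the glucocorticoid-induced leucine zipper, was at 11.85, 11.56 and 11.70 with dexamethasone and 10.48, 10.48 and 10.75 with vehicle, a rise of 1.13 ± 0.15. In both genes every dexamethasone library lay above every vehicle library, with a wide gap for Fkbp5 and a narrower one for Tsc22d3. Tat, the tyrosine aminotransferase gene used as a marker of glucocorticoid action in hepatocytes, rose by 1.02 ± 0.25. Among classical targets, Pck1, the gluconeogenic PEPCK gene (-0.12 ± 0.20, adjusted p = 0.663), G6pc, glucose-6-phosphatase (-0.24 ± 0.20, adjusted p = 0.368), and the clock gene Per1 (0.36 ± 0.16, adjusted p = 0.091) did not pass. Per1 passed when only the 6 ovariectomized libraries were fitted (adjusted p = 0.0291).

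The receptor gene Nr3c1 itself did not pass, at 10.91 ± 0.087 with dexamethasone and 10.95 ± 0.019 with vehicle (SD, n = 3 each), a change of -0.03 ± 0.054 (adjusted p = 0.636). Of 20 genes for the receptor, its chaperones and its cofactors, 4 rose and 1 fell, against 21.3% and 19.4% of all genes. Serpina6, which encodes the plasma carrier of corticosteroids, was at 13.97, 13.72 and 14.04 with dexamethasone and 14.95, 15.11 and 15.41 with vehicle, and fell by 1.25 ± 0.21. Hsd11b1, the enzyme that regenerates active glucocorticoid, stood at -0.21 ± 0.099 (adjusted p = 0.114) and passed under quantile normalization (-0.28, adjusted p = 0.0135). Nrip1, a corepressor of nuclear receptors, rose by 0.64 ± 0.11. Esr1, which encodes oestrogen receptor alpha, was at 9.33, 7.88 and 9.47 with dexamethasone and 8.09, 8.03 and 8.21 with vehicle. Dexamethasone replicate 2 lay below all vehicle libraries and the other 2 lay above them, and the change of 0.78 ± 0.35 did not pass (adjusted p = 0.0928), while without that library it was 1.29 (adjusted p = 0.00144) and with library weights it was 0.98 (adjusted p = 0.0103).

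The largest fall was that of Nr4a1 (Entrez 15370), an orphan nuclear receptor induced within minutes by many stimuli. Its level was 6.42, 6.46 and 6.60 in dexamethasone libraries, against 11.26, 10.30 and 11.87 in vehicle libraries. It fell by 4.65 ± 0.28 on the log2 scale (limma adjusted p = 1.16e-06). Its relative Nr4a2 (Entrez 18227) was at 4.08, 4.18 and 4.45 with dexamethasone and 7.09, 6.00 and 6.83 with vehicle and fell by 2.40 ± 0.22. In both genes, vehicle replicate 2 was the lowest vehicle library and still lay above every dexamethasone library. The same 2 genes were low in intact females under both treatments: Nr4a1 was at 6.64, 6.47 and 6.53 with dexamethasone and 6.36, 6.63 and 6.54 with vehicle there. In intact females the change was 0.04 ± 0.28 (adjusted p = 0.913), and the response in ovariectomized minus that in intact females was -4.69 ± 0.39 (adjusted p = 0.000148).

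The 250 bases before the starts of Nr4a1 and Nr4a2 are printed because both genes fell together and both stretches hold 4 copies of the short cAMP response motif TGACG, counted on either strand, where the other strand reads CGTCA. At least 1 copy is in 17.7% of all stretches and at least 4 copies in 0.137%. The motifs are in capitals, with no overlap between them (RefSeq, GRCm38.p6, 5′ to 3′ along the gene's strand):
Nr4a1 (chr15:101266596-101266845, plus strand): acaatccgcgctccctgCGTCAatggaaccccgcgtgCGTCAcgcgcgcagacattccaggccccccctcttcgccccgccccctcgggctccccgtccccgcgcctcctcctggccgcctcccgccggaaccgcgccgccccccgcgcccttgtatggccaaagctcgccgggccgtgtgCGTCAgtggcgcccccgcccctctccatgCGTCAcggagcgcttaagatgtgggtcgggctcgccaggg
Nr4a2 (chr2:57124004-57124253, minus strand): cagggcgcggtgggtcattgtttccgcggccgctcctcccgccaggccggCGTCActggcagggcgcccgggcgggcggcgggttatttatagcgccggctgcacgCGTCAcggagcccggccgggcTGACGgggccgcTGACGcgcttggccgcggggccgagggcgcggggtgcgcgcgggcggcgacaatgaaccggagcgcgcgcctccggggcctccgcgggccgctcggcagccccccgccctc
The motif was before 18.4% of genes that rose at least 2-fold, 19.1% of those that fell at least 2-fold and 30.2% of all tested genes with a stretch. Several motifs were searched, and this one, Nr4a1 and Nr4a2 were picked after the results were seen. Neither stretch held the full motif TGACGTCA. Among other genes that fell, the stretches of Ppp1r3g and Atf3 held 1 copy each, and those of Dusp6 and Ier3 held no copy.

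Immediate early genes, which cells switch on without new protein synthesis after growth factors or stress, mostly fell. Of 24 tested, 16 fell and 2 rose, with a median of -0.65. The zinc finger factor Egr1 was at 8.63, 8.66 and 8.26 with dexamethasone and 9.90, 9.24 and 10.75 with vehicle, a change of -1.45 ± 0.29. Maff, a small Maf protein, was at 6.39, 6.44 and 6.20 with dexamethasone and 7.81, 7.88 and 8.01 with vehicle, a change of -1.56 ± 0.27. The stress factor Atf3 was at 6.65, 6.08 and 6.45 with dexamethasone and 7.93, 7.40 and 8.08 with vehicle, a change of -1.41 ± 0.31. For all 3 genes every dexamethasone library was below every vehicle library. The AP-1 subunits Junb (-1.12 ± 0.18) and Fos (-1.08 ± 0.32) and the survival gene Ier3 (-1.37 ± 0.17) also fell. Gadd45b, a stress gene that glucocorticoids induce in liver, went the other way, at 9.79, 8.45 and 8.53 with dexamethasone and 7.08, 7.05 and 6.86 with vehicle, and rose by 1.93 ± 0.35. The plotted genes are the 8 members with the largest falls and Gadd45b, the member with the largest rise, and all were chosen by their values.

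**Figure D3:**
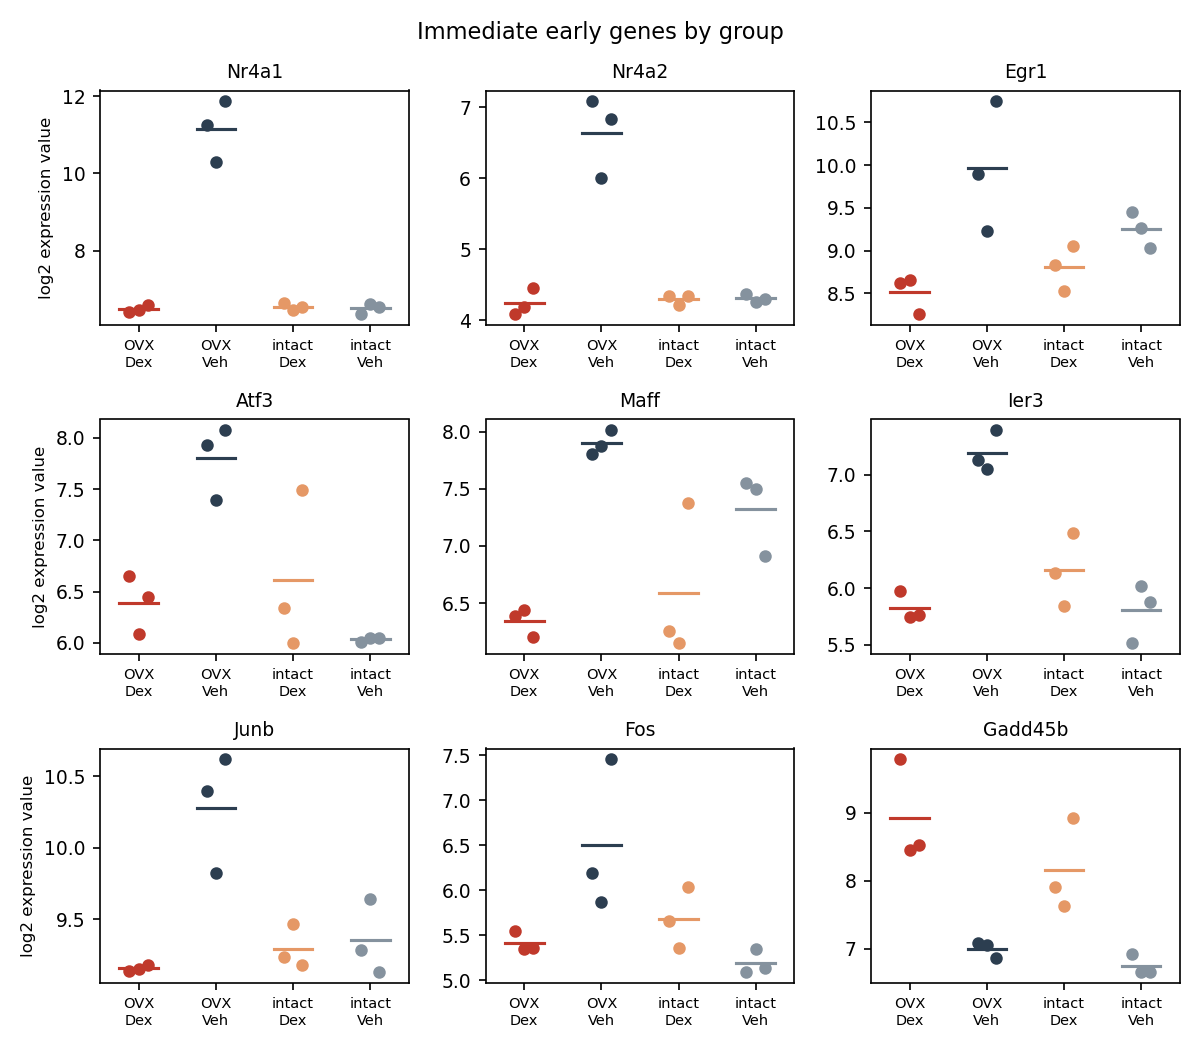
Log2 expression values (vertical axes, a separate range in each panel) of 9 immediate early genes in the 4 groups of 3 libraries, with 1 point per library and a bar at each mean; OVX is ovariectomized, Dex dexamethasone and Veh vehicle. The ovariectomized vehicle libraries were the highest group for 8 of the genes, and Gadd45b was highest in ovariectomized dexamethasone libraries, at 8.45 to 9.79.

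Feedback inhibitors of MAP kinase signalling, which includes the ERK pathway, moved both ways. Of 18 tested, 3 rose and 8 fell, and 5 fell with a mean of at least 6 in place of 4. Dusp6, the phosphatase that inactivates ERK, was at 8.70, 8.61 and 8.70 with dexamethasone and 10.93, 10.74 and 11.31 with vehicle, and fell by 2.33 ± 0.15 without overlap. Spry4, an inhibitor of receptor tyrosine kinase signalling, fell by 1.39 ± 0.28, whereas the EGF receptor inhibitor Errfi1 rose by 1.17 ± 0.25. Efna3, which encodes an ephrin ligand, was at 4.60, 4.69 and 4.81 with dexamethasone and 7.01, 7.38 and 7.16 with vehicle, and fell by 2.49 ± 0.17. Among growth arrest genes 4 of 20 rose and 5 fell, against 21.3% and 19.4% of all genes. Cdkn1a and Gadd45b were among the rises and Gadd45a among the falls (-1.62 ± 0.20). The cell cycle list had 1 rise and 8 falls among 32 members, and 5 falls without vehicle replicate 1. Its only rise was that of Rrm2, a subunit of ribonucleotide reductase (1.31 ± 0.27), and its falls included cyclin D1, Ccnd1 (-0.94 ± 0.16), and E2f1 (-0.73 ± 0.12). Ccnd1 is uncertain, because 23.4% of its exon bases overlap an antisense gene.

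Of 42 genes that break down amino acids and make urea, 27 rose and 0 fell (0 at an unadjusted limma p under 0.05), with a median of 0.41. Tdo2, which starts tryptophan breakdown, was at 16.54, 16.60 and 16.47 with dexamethasone and 14.74, 14.84 and 14.81 with vehicle, a rise of 1.74 ± 0.11. Aass, which starts lysine breakdown, was at 14.99, 14.88 and 14.95 with dexamethasone and 13.15, 13.22 and 13.40 with vehicle, a rise of 1.68 ± 0.11. Cps1, the entry enzyme of the urea cycle, was at 17.81, 17.73 and 17.68 with dexamethasone and 16.26, 16.24 and 16.60 with vehicle, a rise of 1.38 ± 0.12. In each of these genes the replicates lay close together and the groups were far apart. Of 18 amino acid transporters, 4 rose and 5 fell. Slc43a1, a transporter of large neutral amino acids, rose by 1.94 ± 0.13, while Slc38a3, which carries glutamine (-0.66 ± 0.11), and Slc7a5, the light chain of the LAT1 transporter (-0.61 ± 0.13), fell.

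Of 25 gluconeogenesis genes, 10 rose and 2 fell, with 1 to 3 falls when 1 library was left out. The rises were led by the aminotransferases Gpt2 (1.08 ± 0.089) and Got1 (1.02 ± 0.22), which feed amino acid carbon into the pathway, and by Slc37a4, the glucose-6-phosphate transporter, at 13.54, 13.52 and 13.43 with dexamethasone and 12.55, 12.58 and 12.58 with vehicle (0.92 ± 0.075). Glycogen genes counted 3 rises and 6 falls among 21, with 5 rises without dexamethasone replicate 1. The 2 glycogen-targeting subunits of protein phosphatase 1 with the largest changes went opposite ways. Ppp1r3g was at 5.99, 7.01 and 6.81 with dexamethasone and 10.38, 9.62 and 10.64 with vehicle, and fell by 3.61 ± 0.30. Ppp1r3b was at 13.34, 13.14 and 13.58 with dexamethasone and 11.50, 11.59 and 11.78 with vehicle, a rise of 1.73 ± 0.22. The liver glycogen synthase gene Gys2 fell by 0.92 ± 0.094.

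Insulin signalling and glucose use genes counted 4 rises and 10 falls among 24. The insulin receptor substrate genes Irs1 (-1.40 ± 0.12) and Irs2 (-1.11 ± 0.20) fell. Irs1 is uncertain, because 30.9% of its exon bases overlap an antisense gene and strand use in the counting is not stated. Of 22 genes of mTORC1 and translation control, 8 rose and 4 fell, with 5 rises without dexamethasone replicate 1 or vehicle replicate 1 or 3. Ddit4, an inhibitor of mTORC1, was at 10.12, 9.13 and 9.24 with dexamethasone and 7.10, 6.93 and 7.31 with vehicle, a rise of 2.39 ± 0.38, and Trib3, a stress-induced pseudokinase, fell by 1.06 ± 0.24.

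Lipid droplet genes rose more often than they fell, with 14 rises and 4 falls among 32 and a median of 0.16. Plin4, another droplet coat protein, was at 11.43, 11.24 and 11.62 with dexamethasone and 9.15, 10.21 and 8.35 with vehicle, a rise of 2.19 ± 0.38. Cidec, which enlarges droplets, was at 8.60, 9.19 and 9.75 with dexamethasone and 7.36, 7.70 and 7.10 with vehicle, a rise of 1.79 ± 0.23. Both genes were uneven among libraries, though neither overlapped between treatments. Fatty acid and triglyceride synthesis genes counted 11 rises and 7 falls among 32, and 7 rises without dexamethasone replicate 3 or vehicle replicate 1, and 11 falls without intact vehicle replicate 2. Lpin1, a phosphatidate phosphatase, was at 14.27, 13.98 and 13.87 with dexamethasone and 11.72, 11.73 and 11.67 with vehicle, a rise of 2.33 ± 0.29. The elongase gene Elovl3 (1.68 ± 0.46) and the lipogenic gene Thrsp (1.53 ± 0.37) rose too.

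Fatty acid oxidation and PPARalpha targets gave 7 rises and 9 falls among 39, a share of falls close to that of all genes, and 5 falls without dexamethasone replicate 1 or vehicle replicate 2. The neighbouring thioesterase genes Acot1 and Acot3 went opposite ways. Acot3, a peroxisomal enzyme, was at 10.12, 11.20 and 10.06 with dexamethasone and 12.65, 12.86 and 11.94 with vehicle, and fell by 2.03 ± 0.30, and Acot1 rose by 1.23 ± 0.32. Acot3 is uncertain, because 20.6% of its exon bases overlap another gene. Cholesterol synthesis genes counted 6 rises and 8 falls among 29, against 21.3% and 19.4% of all genes. Insig2, which holds back sterol-driven transcription, was at 13.35, 13.74 and 13.57 with dexamethasone and 11.47, 11.38 and 11.35 with vehicle, a rise of 2.15 ± 0.15. Fdft1, which encodes squalene synthase, fell by 0.86 ± 0.097.

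Bile acid genes counted 8 rises and 4 falls among 29, against 21.3% and 19.4% of all genes, and 8 falls under quantile normalization. Cyp7a1, the rate-limiting enzyme of bile acid synthesis, was at 14.33, 13.52 and 13.65 with dexamethasone and 12.77, 12.58 and 12.66 with vehicle, a rise of 1.16 ± 0.18. The bile acid uptake carrier gene Slc10a2 rose by 1.14 ± 0.26 and the sterol exporter gene Abcg5 fell by 0.99 ± 0.098. Drug-metabolizing P450 genes of families 1 to 3 counted 4 rises and 9 falls among 42. Cyp2b10, the classical target of the xenobiotic receptor CAR, was at 14.35, 13.94 and 14.17 with dexamethasone and 11.79, 11.74 and 12.10 with vehicle, a rise of 2.28 ± 0.13 without overlap. Cyp2g1 fell by 1.69 ± 0.23. Cyp3a16 passed (-2.02 ± 0.72, adjusted p = 0.0417), but vehicle replicate 2 was at 5.98, below all dexamethasone libraries, and the call was lost without any one of 8 of the 12 libraries (adjusted p up to 0.174). Por, the reductase that serves these enzymes, rose by 0.70 ± 0.098.

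Conjugation enzymes counted 6 rises and 9 falls among 46. Beside Sult1e1, the rises were led by the sulfotransferase gene Sult3a1, at 8.26, 9.52 and 8.81 with dexamethasone and 7.01, 6.82 and 6.61 with vehicle (2.05 ± 0.44), and by Nnmt, the nicotinamide methyltransferase (1.90 ± 0.25). Of 19 genes of steroid metabolism and oestrogen signalling, 5 rose and 6 fell. Cyp17a1, a steroid hydroxylase and lyase, was at 10.57, 11.74 and 10.49 with dexamethasone and 8.79, 8.95 and 9.80 with vehicle (1.75 ± 0.49, adjusted p = 0.0133), and the adjusted p was 0.0543 without dexamethasone replicate 2 and 0.0537 without vehicle replicate 1. Of 16 xenobiotic receptors and partners, 2 rose and 4 fell, with 5 rising without ovariectomized vehicle replicate 2, 4 without intact dexamethasone replicate 2, and 1 without ovariectomized dexamethasone replicate 1 or 3 or vehicle replicate 1 or 3. The antioxidant regulator Nfe2l2 (-0.75 ± 0.077) and the poly-ADP-ribose polymerase gene Tiparp (-0.94 ± 0.11) were among the falls.

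Of 42 acute phase proteins, plasma proteins that the liver makes in inflammation, 20 rose, 2 fell and 20 did not pass, with a median of 0.36. Quantile normalization gave 8 falls, and leaving out dexamethasone replicate 3 or vehicle replicate 1 or 3 gave 1. Serpina3k, a protease inhibitor gene, was at 18.49, 18.37 and 18.50 with dexamethasone and 16.02, 16.05 and 15.29 with vehicle, a rise of 2.66 ± 0.33, with a narrow spread among dexamethasone libraries. Saa1, serum amyloid A, was at 13.96, 13.44 and 13.49 with dexamethasone and 10.66, 10.63 and 11.25 with vehicle, a rise of 2.79 ± 0.24. Orm3, an orosomucoid gene, was at 9.67, 9.59 and 9.87 with dexamethasone and 6.73, 7.06 and 7.89 with vehicle, a rise of 2.48 ± 0.26. In each of these 3 genes the vehicle libraries spread more than the dexamethasone libraries, and the gap between treatments was wider than either spread. Saa1 is uncertain, because 31.5% of its words occur in Saa2.

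Interleukin 6 signalling genes, which drive the acute phase, counted 6 rises and 5 falls among 22, with a median of 0.03. Over all genes tested, 21.3% rose and 19.4% fell. Il6ra, the ligand-binding receptor subunit, was at 10.70, 10.49 and 10.39 with dexamethasone and 8.97, 9.07 and 8.91 with vehicle, a rise of 1.54 ± 0.15. The interleukin 1 receptor gene Il1r1 was at 11.48, 11.26 and 11.44 with dexamethasone and 9.75, 9.94 and 9.83 with vehicle, a rise of 1.56 ± 0.20. Socs3, the feedback inhibitor of the pathway, was at 7.67, 7.83 and 7.67 with dexamethasone and 8.35, 8.57 and 8.39 with vehicle, and fell by 0.72 ± 0.11. Every dexamethasone library lay above every vehicle library for Il6ra and Il1r1, and below every vehicle library for Socs3. Complement and coagulation factors counted 4 rises and 16 falls among 49. Mbl2, mannose-binding lectin, fell by 0.65 ± 0.068.

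Interferon response genes mostly fell: 45 of 56 fell and 2 rose, with a median of -0.48. Gbp10, a guanylate-binding GTPase, was at 5.80, 5.99 and 6.00 with dexamethasone and 7.77, 7.55 and 7.84 with vehicle, and fell by 1.79 ± 0.14. It is uncertain, because 84.1% of its words occur in another gene. Zbp1, a sensor of nucleic acids, was at 7.40, 7.10 and 7.31 with dexamethasone and 8.53, 8.39 and 8.60 with vehicle, and fell by 1.24 ± 0.18. Ifit1, an inhibitor of viral RNA translation, was at 6.69, 6.85 and 6.92 with dexamethasone and 7.96, 7.93 and 8.02 with vehicle, and fell by 1.15 ± 0.093. In all 3 genes the dexamethasone libraries lay clearly below the vehicle libraries. Of 26 antigen processing and presentation genes, 17 fell and 0 rose (1 at an unadjusted limma p under 0.05). The falls included the immunoproteasome subunit Psmb9 (-0.83 ± 0.14), the class II gene H2-Ab1 (-0.76 ± 0.16) and H2-Ob (-0.86 ± 0.15).

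Cytokines, chemokines and NF-kappaB feedback genes counted 4 rises and 15 falls among 38, and 9 falls without dexamethasone replicate 3. Il1b, interleukin 1 beta, was at 4.88, 4.69 and 4.97 with dexamethasone and 6.54, 6.04 and 6.78 with vehicle, and fell by 1.61 ± 0.19. Il1a was at 6.74, 6.76 and 6.69 with dexamethasone and 7.88, 7.61 and 8.004 with vehicle, and fell by 1.10 ± 0.10. The interferon-induced chemokine gene Cxcl10 fell by 1.03 ± 0.13. For both cytokines the dexamethasone libraries lay below the vehicle libraries without overlap.

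The tested markers of B cells and neutrophils mostly fell, while those of T and NK cells mostly did not pass. Of B cell markers 7 of 8 tested fell and 0 rose (0 at an unadjusted limma p under 0.05). Sums of markers take every listed marker with an entry, also those under the filter. For the 10 such B cell markers the log2 of the summed values was 8.02 to 8.06 with dexamethasone and 8.61 to 8.92 with vehicle. All 3 neutrophil markers tested, of 13 listed, fell. The sum over the 12 with an entry was 7.17 to 7.32 with dexamethasone and 7.80 to 8.12 with vehicle. None of these markers was listed at 0 in all libraries, and with a mean of at least 6 in place of 4 the falls numbered 2 and 1. Kupffer cell and macrophage markers counted 1 rise and 6 falls among 16, a share of falls above the 19.4% of all genes. There was 1 fall without dexamethasone replicate 3 or vehicle replicate 1. The sums overlapped (13.74 to 14.08 with dexamethasone and 13.94 to 14.19 with vehicle). T and NK cell markers counted 1 rise and 2 falls among 13, with a median of -0.06 and a share of falls below the 19.4% of all genes. The part of these cells in the falls of interferon, antigen presentation and cytokine genes was not tested.

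Within the immune markers, Csf3r, the receptor for granulocyte colony-stimulating factor, was at 6.07, 6.29 and 6.19 with dexamethasone and 6.88, 6.76 and 6.89 with vehicle, and fell by 0.66 ± 0.09. Cd163, the haemoglobin scavenger receptor that glucocorticoids induce in macrophages, was at 9.21, 8.94 and 8.76 with dexamethasone and 8.09, 7.79 and 7.98 with vehicle, a rise of 1.02 ± 0.19. It was the macrophage marker that rose, whereas Cd68 fell by 0.55 ± 0.081. Of 19 sinusoidal endothelial markers 2 rose and 4 fell, with 2 falls without dexamethasone replicate 3 or vehicle replicate 1 or 3, and the rises were those of the hyaluronan receptor Lyve1 (1.52 ± 0.27) and the scavenger receptor Stab1 (0.78 ± 0.12). Stellate and fibroblast markers counted 3 rises, led by Pdgfra (0.78 ± 0.12), and 1 fall among 18. Falls numbered 4 without vehicle replicate 2 and 2 without intact dexamethasone replicate 3. Of 9 cholangiocyte markers tested 4 fell, with Krt23 (-1.50 ± 0.26) and Spp1, osteopontin (-0.58 ± 0.088), among them. The sum over all 12 listed was 11.27 to 11.40 with dexamethasone and 11.71 to 11.91 with vehicle. Spp1 alone was at 10.90, 10.63 and 10.68 with dexamethasone and 11.35, 11.17 and 11.44 with vehicle.

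Circadian clock genes moved both ways, and of 25 tested 5 rose and 9 fell, against 21.3% and 19.4% of all genes. Arntl, which encodes the activator BMAL1, was at 8.31, 8.40 and 8.65 with dexamethasone and 6.07, 5.93 and 6.07 with vehicle, a rise of 2.43 ± 0.18. Dbp, a clock output factor that the activators drive, was at 9.15, 9.94 and 9.12 with dexamethasone and 11.40, 11.49 and 11.42 with vehicle, and fell by 2.03 ± 0.30. Nr1d1, the repressor REV-ERBalpha, was at 10.26, 10.92 and 10.22 with dexamethasone and 11.80, 11.76 and 11.91 with vehicle, and fell by 1.35 ± 0.22. Arntl was higher and Dbp and Nr1d1 lower in every dexamethasone library than in any vehicle library. Clock, the partner of BMAL1 (1.21 ± 0.088), and the repressor gene Cry1 (1.32 ± 0.12) also rose, and the period gene Per3 (-1.18 ± 0.19) fell, these 3 being chosen after their values were seen.

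Among hepatocyte transcription factors 8 of 26 rose and 4 fell, with 1 fall without dexamethasone replicate 3 or vehicle replicate 1. Hnf4a, the master regulator of hepatocyte genes, was at 14.53, 14.40 and 14.54 with dexamethasone and 13.64, 13.78 and 13.62 with vehicle, a rise of 0.81 ± 0.088. Cebpd, an acute phase transcription factor, rose by 1.24 ± 0.22. Cux2, a female-biased repressor in liver, was at 9.93, 7.64 and 8.21 with dexamethasone and 10.39, 10.60 and 9.96 with vehicle, a change of -1.73 ± 0.53 (adjusted p = 0.0225) that no longer passed without dexamethasone replicate 2 or 3 or vehicle replicate 1 or 2 (adjusted p up to 0.0894). Genes of the pericentral zone, near the central vein, counted 2 rises and 7 falls among 22. Genes of the periportal zone counted 9 rises and 2 falls among 22. All genes tested gave 21.3% rises and 19.4% falls. Periportal falls numbered 1 without dexamethasone replicate 1 or 3 or vehicle replicate 2, and pericentral falls numbered 4 without vehicle replicate 3 and 12 without intact dexamethasone replicate 3. Lgr5, a Wnt pathway receptor of pericentral cells, was at 5.87, 6.92 and 6.00 with dexamethasone and 7.62, 7.66 and 7.76 with vehicle, and fell by 1.42 ± 0.30, and the Wnt feedback ligase gene Rnf43 fell by 0.79 ± 0.14. Sds, the periportal serine dehydratase, rose by 1.30 ± 0.24, and is uncertain because 29.6% of its exon bases overlap an antisense gene.

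Growth hormone and IGF axis genes counted 4 rises and 8 falls among 32, with 1 rise without vehicle replicate 3 and 4 falls without vehicle replicate 1. Of 31 secreted hormones, 6 rose and 4 fell, against 21.3% and 19.4% of all genes. Tsku, a secreted proteoglycan, was at 12.19, 11.99 and 12.94 with dexamethasone and 9.86, 11.19 and 10.14 with vehicle, a rise of 1.98 ± 0.39. Ctgf, a matricellular growth factor, was at 9.51, 9.45 and 8.98 with dexamethasone and 8.01, 7.56 and 8.22 with vehicle, a rise of 1.38 ± 0.28. Enho, which encodes adropin, was at 8.89, 8.40 and 8.37 with dexamethasone and 9.94, 9.51 and 10.003 with vehicle, and fell by 1.26 ± 0.19. No library of these 3 genes crossed into the other treatment's range.

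Protein folding genes rose more often than they fell. Of 31 endoplasmic reticulum genes 13 rose and 3 fell. The rises were led by Creld2 (0.97 ± 0.12) and Manf (0.95 ± 0.15), both induced when folding in that compartment is strained. The largest change of the list by size was the fall of the stress-induced gene Trib3 (-1.06). Of 24 heat shock proteins 10 rose and 3 fell, and 5 rose without dexamethasone replicate 3 or vehicle replicate 1. The cochaperone gene Dnaja1 was at 11.81, 11.70 and 11.73 with dexamethasone and 10.84, 10.98 and 11.06 with vehicle, a rise of 0.79 ± 0.066, and the small heat shock protein gene Hspb8 rose by 0.85 ± 0.11. Autophagy and proteolysis genes counted 12 rises and 5 falls among 27, with 3 falls without any one of dexamethasone replicates 1 and 3 or vehicle replicates 1 to 3. Fbxo31, a ubiquitin ligase subunit, was at 12.05, 12.12 and 11.88 with dexamethasone and 10.52, 10.68 and 10.53 with vehicle, a rise of 1.44 ± 0.12, and the autophagosome gene Wipi1 rose by 1.23 ± 0.13. Metal handling genes counted 6 rises and 6 falls among 26, near the 21.3% and 19.4% of all genes. The metallothioneins Mt1 and Mt2 (1.83 ± 0.31) led the rises. Mt2 is uncertain, because 73.5% of its exon bases overlap an antisense gene.

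Ribosomal protein and respiratory chain genes mostly did not pass. Of 64 cytosolic ribosomal protein genes 6 rose and 0 fell (0 at an unadjusted limma p under 0.05), with a median of 0.03, and 1 rose without dexamethasone replicate 1. Of 57 oxidative phosphorylation subunits 5 rose and 1 fell, with a median of 0.08. That count of rises ran from 1 (without dexamethasone replicate 3) to 9 (without vehicle replicate 3) and was 15 once trends on length and GC content of transcripts were removed in every library, an alternative chosen after seeing the data. Ndufa8, a complex I subunit, was at 11.70, 11.64 and 11.70 with dexamethasone and 11.45, 11.47 and 11.53 with vehicle, a rise of 0.20 ± 0.047.

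**Figure D4:**
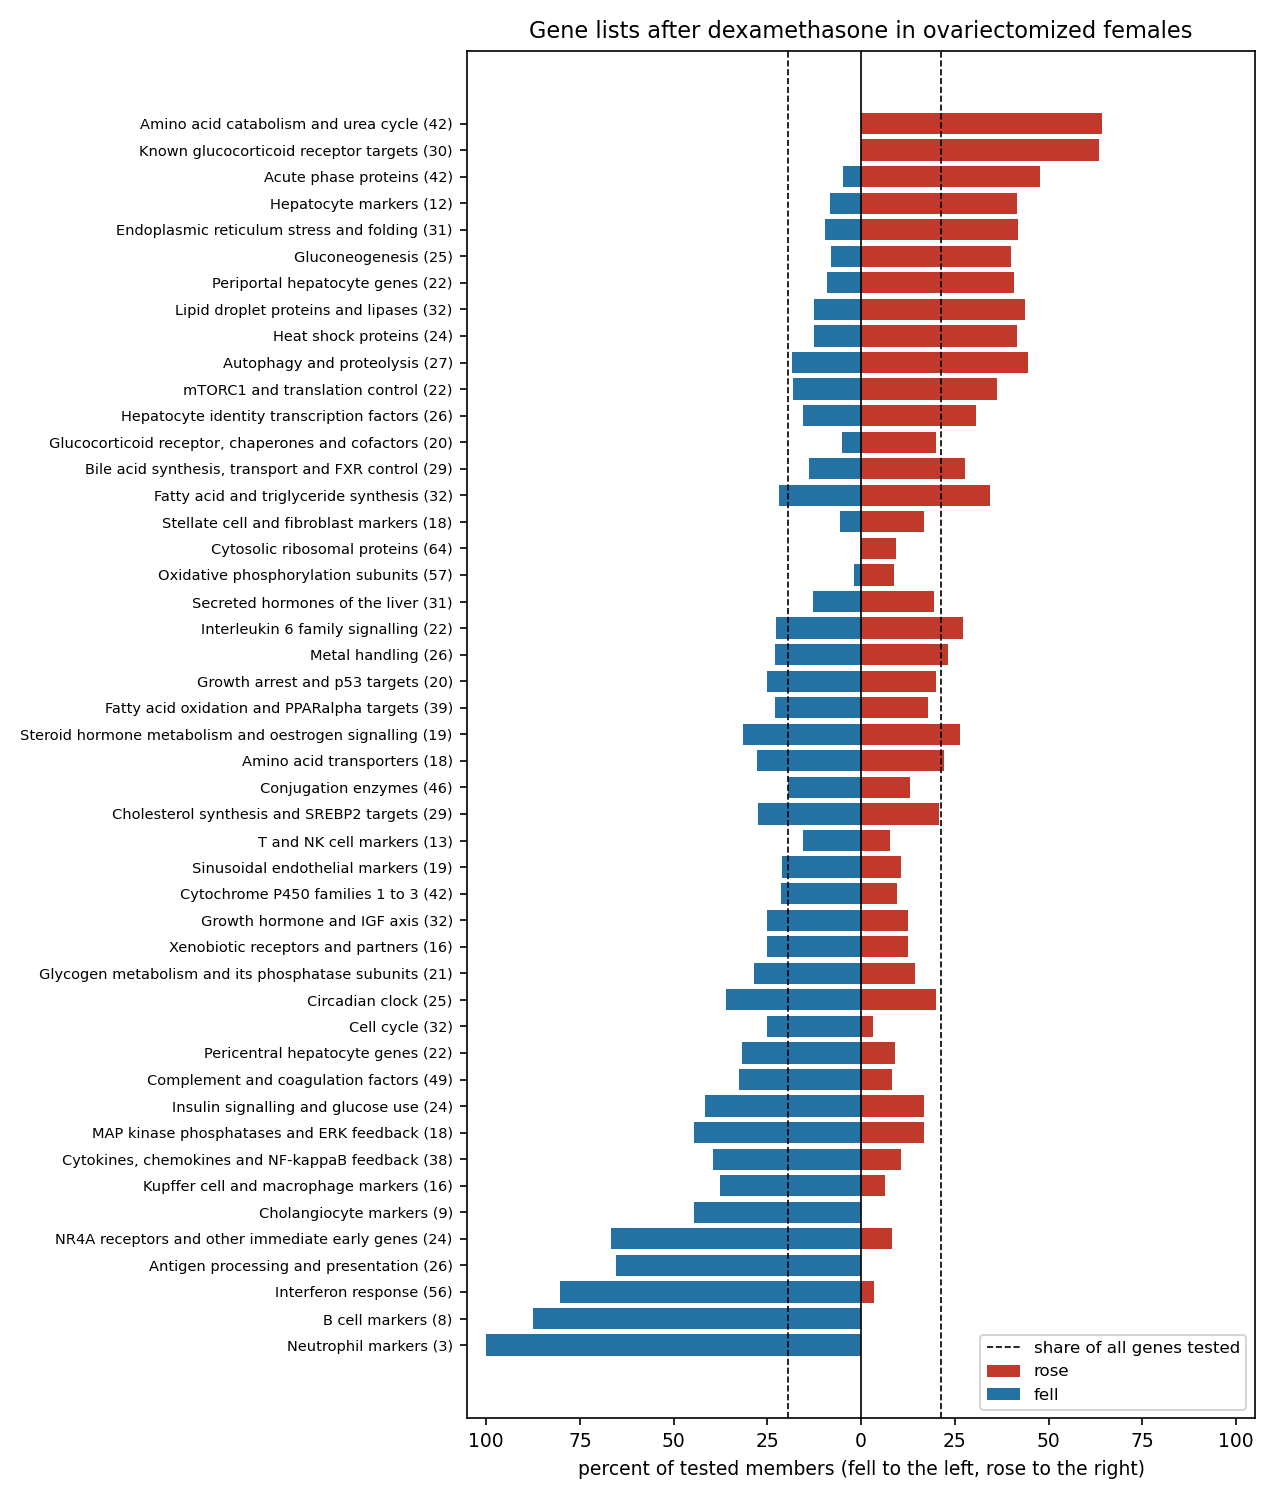
Percent of tested members of each gene list that rose (red, to the right) or fell (blue, to the left) with dexamethasone in ovariectomized females, with the number tested in brackets and dashed lines at the shares of all genes (21.3% rose and 19.4% fell). Amino acid catabolism and known receptor targets lie at the top with 0 falls, and interferon response genes, B cell markers and the 3 neutrophil markers lie at the bottom.

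The response was set against that of intact females, which used other libraries. In intact females 2959 genes (22.8%) rose and 3364 (25.9%) fell, 48.8% in all. Of the genes that rose after ovariectomy, 1285 (46.5%; 43.4% of the rises in intact females) also rose in intact females, 269 fell there and 1211 did not pass there. Of the falls after ovariectomy, 1369 (54.4%; 40.7% of the falls in intact females) also fell, 100 rose and 1049 did not pass. The test of the difference itself passed for 3234 genes (24.9%), of which 1983 (15.3%) had a higher and 1251 (9.65%) a lower response in ovariectomized females. Across genes, which are not independent replicates, the 2 responses had a Spearman rho of 0.474.

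Lcn2 and Zbtb16 rose in both gonadal states and more after ovariectomy. The Zbtb16 response was 2.89 ± 0.30 in ovariectomized and 1.31 ± 0.30 in intact females, a difference of 1.58 ± 0.42 (adjusted p = 0.0189). Its intact vehicle libraries were uneven, at 8.47, 7.17 and 7.47. With 1 library left out, the difference was as low as 1.2 and the limma adjusted p up to 0.0436. For Lcn2 the response was 4.06 ± 0.20 in ovariectomized and 2.68 ± 0.20 in intact females, a difference of 1.38 ± 0.28 (adjusted p = 0.00498). The responses of Fam107a (4.17 ± 0.34 ovariectomized and 3.72 ± 0.34 intact, difference 0.45 ± 0.49), Sult1e1 (3.49 ± 0.22 and 3.28 ± 0.22, difference 0.21 ± 0.31) and Rnf186 (-2.08 ± 0.12 and -1.91 ± 0.12, difference -0.18 ± 0.17) had differences that did not pass.

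The largest positive differences included genes that fell in intact females and not after ovariectomy. Mia2, which helps export large cargo from the endoplasmic reticulum, was at 9.37, 9.52 and 9.58 with dexamethasone and 8.98, 9.17 and 8.84 with vehicle in ovariectomized females, and at 8.67, 8.76 and 8.75 with dexamethasone and 10.54, 9.96 and 10.40 with vehicle in intact females. The intact vehicle libraries were the highest of the 4 groups, and the difference between responses was 2.06 ± 0.18 (adjusted p = 0.000155). Abhd2, a lipase of the alpha/beta hydrolase family, had a response of 0.18 ± 0.16 in ovariectomized and -1.84 ± 0.16 in intact females, a difference of 2.02 ± 0.23. Nrip1 was at 6.17, 6.44 and 6.54 with dexamethasone and 5.69, 5.86 and 5.69 with vehicle in ovariectomized females, and at 5.52, 5.51 and 5.62 with dexamethasone and 6.63, 6.43 and 6.66 with vehicle in intact females. Its responses had opposite signs, 0.64 ± 0.11 in ovariectomized and -1.03 ± 0.11 in intact females (difference 1.66 ± 0.15, adjusted p = 0.000158). Il6ra rose after ovariectomy (1.54 ± 0.15) and did not pass in intact females (-0.26 ± 0.15, adjusted p = 0.169), with a difference of 1.80 ± 0.21. Nr3c1 did not pass after ovariectomy (-0.03 ± 0.054) and fell in intact females (-0.57 ± 0.054), where the vehicle libraries stood at 11.44, 11.35 and 11.35, and the difference was 0.54 ± 0.077 (adjusted p = 0.00101). Hnf4a rose after ovariectomy (0.81 ± 0.088) and stood at -0.02 ± 0.088 in intact females (difference 0.84 ± 0.12).

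On the lower side, Ppp1r3g was at 6.47, 6.35 and 6.72 with dexamethasone and 6.93, 7.42 and 6.65 with vehicle in intact females, a change of -0.48 ± 0.30 that did not pass (adjusted p = 0.201), and its responses differed by -3.12 ± 0.42 (adjusted p = 0.000813). Ankrd37, an ankyrin repeat gene, was at 6.09, 6.36 and 6.21 with dexamethasone and 7.84, 8.67 and 7.97 with vehicle in ovariectomized females, and at 6.83, 6.05 and 7.01 with dexamethasone and 6.18, 6.07 and 6.46 with vehicle in intact females. For Ankrd37 the ovariectomized vehicle libraries stood above the other 9, and it is uncertain because 26.4% of its exon bases overlap the antisense gene Lrp2bp. Btbd19 fell after ovariectomy (-1.63 ± 0.20) and rose in intact females (0.62 ± 0.20, adjusted p = 0.0237), a difference of -2.26 ± 0.29. Nupr1, a stress-induced chromatin protein, was at 5.67, 5.83 and 5.71 with dexamethasone and 7.14, 7.67 and 6.25 with vehicle in ovariectomized females, and the difference was -1.61 ± 0.40. Il1b and Socs3 fell after ovariectomy and did not pass in intact females (-0.26 ± 0.19 and 0.25 ± 0.11), with differences of -1.35 ± 0.26 and -0.97 ± 0.15.

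Among all genes tested, the difference was higher for 15.3% and lower for 9.65%. By list, it was lower in 14 and higher in 0 (0 at an unadjusted limma p under 0.05) of the 24 immediate early genes. Of these genes 8 rose and 1 fell in intact females. For amino acid catabolism it was higher in 15 and lower in 0 of 42 (1 at an unadjusted limma p under 0.05), with medians of 0.41 in ovariectomized and 0.15 in intact females. Cps1 is an example, with responses of 1.38 ± 0.12 in ovariectomized and 0.33 ± 0.12 in intact females. Complement and coagulation factors (17 higher and 0 lower of 49) and fatty acid oxidation genes (16 higher and 0 lower of 39) also had more higher responses, with 2 and 0 lower ones at an unadjusted limma p under 0.05, and in both lists more genes fell in intact females (30 and 20). Ribosomal proteins (1 higher and 22 lower of 64) and oxidative phosphorylation subunits (5 higher and 25 lower of 57) rose in intact females (44 and 39 rises) more than after ovariectomy. Removing trends on length and GC content of transcripts, chosen after seeing the data, gave 952 lower responses over all genes in place of 1251. Of the complex I subunits, Ndufa8 then had a difference of -0.040 (limma adjusted p = 0.588), while Ndufa6 still passed. Interferon response genes had similar medians, -0.48 in ovariectomized and -0.55 in intact females, with 6 higher and 8 lower of 56, near the shares of all genes. Without intact dexamethasone replicate 1 the lower responses over all genes numbered 741, and without intact vehicle replicate 1 they numbered 822.

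**Figure D5:**
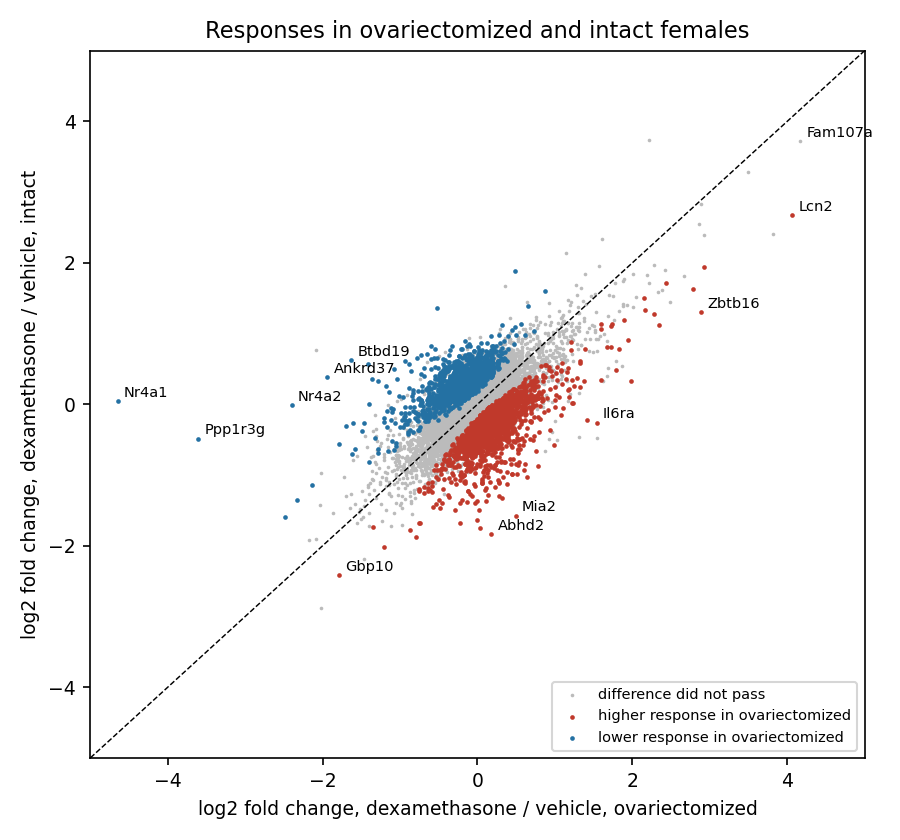
Log2 fold change with dexamethasone in ovariectomized females (horizontal axis) against that in intact females (vertical axis) for 12965 genes, with a dashed line of equality, genes with a higher response in ovariectomized females in red and genes with a lower one in blue. Nr4a1, Nr4a2 and Ppp1r3g lie far to the left near 0 on the vertical axis, and Mia2 and Abhd2 lie right of 0 on the horizontal axis and well below 0 on the vertical one.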

How the data were processed

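Liver RNA of wild-type C57BL/6 females was sequenced in 12 libraries, 3 for each of 4 groups, and the groups were taken from the labels. The authors deposited 1 table of log2 expression values for 24962 gene entries. Trim Galore, TopHat2, HTSeq, DESeq and DESeq2 and the build mm9 are named in the submitters' processing notes, without versions or roles. The exact log2 transformation, the annotation and any strand setting were not given in the sources. Raw counts were not used here, so no count model was fitted, and a log2 difference near the lower end may understate a change. Some single-gene results are not reported here, although those genes stay in the counts. No column of another series was present (0).

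Where a symbol had several entries (392 symbols), only its highest on average entered, giving 24033 symbols. Of all entries, 6294 were at 0 in every library. Genes whose 12 libraries averaged 4 or more were tested, 12965 in all. A 4-group linear model with a variance trend was fitted with limma 3.58.1 in R 4.3.3 (8 residual degrees of freedom), and p-values were adjusted by Benjamini-Hochberg over all genes tested. The difference between responses was the interaction contrast. Data of the same size (12965 genes) were simulated with normal noise, with 50 genes changed at each size and no dexamethasone response in the others. For the dexamethasone response in ovariectomized females, 26%, 82%, 100% and 100% of changes of 0.3, 0.6, 1 and 2 were recovered. There were 10 false calls among the unchanged genes. In the real data 40.7% of genes passed, so these shares need not hold for them.

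Members and lists were chosen with earlier results of these data known. Genes named by rule were the 12 largest rises and falls that passed without overlap, the 5 rises and falls with the largest change over error, the 8 largest differences each way, up to 3 per list by size, and a few receptor genes and targets. Genes sharing at least 20% of their 50-base words with other genes, or with exons overlapping another gene by at least 20%, are given as uncertain. That check covered the 159 genes named by rule and 12 further genes printed, except Ctgf, which had no match. Promoter sequences came from RefSeq (GRCm38.p6), a later build than that of the files, and were matched by symbol and Entrez number. Alternatives covered the filter, an offset of 8 on the linear scale, scaling, the variance model, a replicate block, the 6 ovariectomized libraries alone and leaving out each library.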

Additional observations from a re-analysis of the deposited data

Results flagged for a closer look

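A difference between the responses of ovariectomized and intact females passed the interaction test (limma, adjusted p under 0.05 over 12965 genes) for 57 of the 159 genes named by rule, and 38 of the 57 passed in every fit that left out 1 library. Over all genes tested, 24.9% passed. The named genes were chosen partly by this same test and by their response in ovariectomized females. Their share therefore cannot be compared with that of all genes. Values are log2 responses in ovariectomized minus intact females, with 3 libraries in each of the 4 groups. In the sentences on genes that lost the call, the number of fits of 12 in which it was lost and the highest adjusted p follow the value.

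The immediate early genes Nr4a1, Nr4a2, Atf3 and Ier3 had differences of -4.69, -2.39, -1.98 and -1.72. For the phosphatase gene Dusp6 and the ephrin gene Efna3 it was -0.967 and -0.901. Nr4a1 and Nr4a2 had no change in intact females that passed, and their ovariectomized vehicle libraries stood above all other libraries. Further negative differences were -3.12 for Ppp1r3g, -2.33 for Ankrd37, -2.26 for Btbd19, -1.61 for Nupr1 and -0.776 for Tiparp. Of the genes of inflammation and of other cell types, Il1b had -1.35, Il1a -0.987, Socs3 -0.97, Csf3r -0.712, Spp1 -0.704, Epcam -0.511 and Clec4g -0.429. The complex I subunits Ndufa6 and Ndufa8 had -0.388 and -0.258.

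Positive differences were 2.06 for Mia2, 2.02 for Abhd2, 1.8 for Il6ra, 1.66 for Nrip1 and 1.78 for Rnf125. The Rnf125 response in ovariectomized females was itself near 0 and changed sign between fits. Among genes that rose with dexamethasone, Zbtb16 had 1.58, Lcn2 1.38, Cidec 1.31, Slc43a1 1.04, Por 0.817, Hnf4a 0.835 and Sult1d1 0.455. The amino acid genes Cps1, Aass, Tdo2 and Gpt2 had 1.04, 0.874, 0.608 and 0.607. For the receptor gene Nr3c1 the difference was 0.539, and for Abcd2, which fell in both, it was 0.394. Removing trends on length and GC content of transcripts in every library, an alternative chosen after seeing the data, left adjusted p-values of 0.116 for Abcd2, 0.0786 for Clec4g and 0.588 for Ndufa8. Quantile normalization left 0.105 for Sult1d1 and 0.312 for Tdo2.

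The call was lost on leaving out some single libraries for 19 genes. Among them Esr1 had 1.66 (8 fits, 0.0701), Tsku 1.65 (8, 0.107), Onecut1 1.64 (6, 0.0645) and Saa1 1.15 (5, 0.0712). Fkbp5 had 1.01 (7, 0.074), Cyp7a1 0.965 (1, 0.0517), Ppp1r3b 0.918 (10, 0.111), Cd163 0.889 (6, 0.0828) and Plin5 0.725 (2, 0.0579). Insig2 had 0.647 (9, 0.0985) and Gbp10 0.629 (7, 0.08). On the negative side S100a9 had -1.07 (7, 0.0712), Zfp395 -0.996 (7, 0.0601), G6pc -0.921 (7, 0.0829) and Gadd45a -0.908 (6, 0.0899). Irs1 had -0.579 (4, 0.0581), Nfe2l2 -0.384 (3, 0.0603) and Cd68 -0.379 (6, 0.0795). Onecut1 is uncertain, because 52.3% of its 50-base words also occur in another gene.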

How the results depend on the processing

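Counts over all genes and the responses of named genes were recomputed under up to 23 other settings. The fit of the 6 ovariectomized libraries alone gives no difference between responses, and the filter at a mean of 6 leaves out genes below it. With 1 library left out, rises numbered 2065 (without ovariectomized vehicle replicate 1) to 2917 (without intact dexamethasone replicate 3) and falls 1917 to 2706 (the same libraries). Rises of at least 2-fold numbered 186 to 208 and falls of at least 2-fold 142 to 179. Higher responses in ovariectomized females numbered 1433 to 2116, and lower ones 741 (without intact dexamethasone replicate 1) to 1404 (without intact dexamethasone replicate 3), with 822 without intact vehicle replicate 1. Library weights gave 3651 higher and 3008 lower responses, and the cause was not tested. Recentring libraries to the same median gave 2479 rises and 2808 falls.

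Of the 2765 rises 1847 (66.8%), and of the 2518 falls 1609 (63.9%), passed in the same direction under every setting that gave them a value. The Rnf125 response changed sign when ovariectomized libraries were left out and ran from -0.17 to 0.28, with -0.17 without dexamethasone replicate 2, -0.02 without dexamethasone replicate 3 and -0.01 without vehicle replicate 2. The Nr3c1 response ran from -0.079 to 0.0082, the highest without dexamethasone replicate 2. Neither passed as reported. The Esr1 response, which did not pass as reported, passed with library weights (0.98, adjusted p = 0.0103). Of 159 named responses, 146 kept their side of the threshold in every fit that left out 1 library.

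Deviations of same-numbered ovariectomized libraries correlated at 0.157, 0.022 and -0.136, and those of differently numbered ones at -0.238 to 0.262. With 3 libraries a group, these values cannot settle whether replicate numbers pair the libraries. With a replicate block, 2661 genes rose, 2494 fell, 201 rose and 160 fell at least 2-fold, and 1906 responses were higher and 1212 lower. The Esr1 response of 0.78 passed with that block (adjusted p = 0.0388). Depth was not given, so counting error at low values could not be set apart.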
